A study of Homo sapiens with 6 samples.

Results

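The genes of the autophagy machinery were examined in parental HCT116 cells (*ZK3*-WT) and in *ZKSCAN3* knockout HCT116 cells (*ZK3*-KO). HCT116 is a human colorectal carcinoma cell line, and ZKSCAN3 is a zinc finger protein described as a repressor of autophagy genes. The genes were chosen by their known role in autophagosome formation, but with earlier results of these data known. The list held 44 of the 46427 genes in the count table, all 44 were found by symbol, and 43 were among the 18366 genes kept by edgeR's filter on low expression. Each genotype was represented by 3 libraries of stranded polyadenylated RNA. Both kinds of cells were maintained in DMEM with 10% FBS, and no agent was added to induce or block autophagy according to the labels. In *ZK3*-KO cells CRISPR/Cas9 was aimed at the start codon in the first exon of *ZKSCAN3*, and the cells were obtained by single-cell selection with puromycin. The sources do not say whether the 3 *ZK3*-KO libraries came from 1 clone, so a difference between the genotypes cannot be told apart from a difference between clones. The libraries are called biological replicates, but nothing states how they were separated.

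Macroautophagy encloses cytoplasm in a double membrane, the autophagosome, which then fuses with the lysosome. A kinase complex around ULK1 starts the process, and a lipid kinase complex with BECN1 and ATG14 makes the lipid PI3P at the site where the membrane forms. WIPI proteins bind PI3P, ATG2 proteins carry lipids into the growing membrane, and the scramblases ATG9A, of autophagic vesicles, and VMP1 and TMEM41B, of the endoplasmic reticulum, move lipids between membrane leaflets. Conjugation enzymes then attach ATG8 proteins (the LC3 and GABARAP proteins) to the membrane, where they bind receptors such as SQSTM1 (p62) that carry cargo. Much of this machinery is regulated after transcription, so mRNA levels are not a measure of autophagic flux.

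Between 60827060 and 69739215 reads were counted per library. Counts are given below as CPM (counts scaled to a fixed library size) after TMM normalization. Where 3 values are given for a genotype, they stand in the order of replicates 1, 2 and 3, and the *ZK3*-WT and *ZK3*-KO libraries are also called the parental and knockout libraries. Differences are log2 fold changes of *ZK3*-KO over *ZK3*-WT cells from edgeR's quasi-likelihood test, with false discovery rates (FDR) over all 18366 genes. The targeted gene *ZKSCAN3* was counted at 19.8 to 28.1 CPM in *ZK3*-WT cells and at 13.6 to 25.4 CPM in *ZK3*-KO cells (log2 fold change -0.16, FDR 0.797), so its read number did not separate the genotypes. The epithelial markers *EPCAM*, *KRT8*, *KRT18*, *KRT19* and *CDH1* were expressed in every library, with *EPCAM* at 217 to 344 CPM. The intestinal markers *VIL1* and *CEACAM5* were at or near 0. Of the 8 epithelial and intestinal markers listed 6 passed the filter, and the level of the remaining one, *CDX2*, is not described here. Of 12 markers of other cell types, *PTPRC* and *CD3E* were at 0 in every library, and the list summed to between 51.1 and 64.3 CPM in *ZK3*-WT cells and between 43.1 and 113 CPM in *ZK3*-KO cells. Most of that sum was *COL1A1* (32.2 to 98.8 CPM). Of the 12 markers 4 were tested, and 3 were higher and 1 lower in *ZK3*-KO cells, with log2 fold changes from -0.81 to 1.30. All knockout libraries were above every parental library for 2 of them and below for 1, as for 12.7% and 13.8% of all genes. The 1 called, where 2.05% of all genes were, was *ACTA2*, a smooth muscle actin. It rose from 4.39 to 5.52 CPM in *ZK3*-WT cells to 9.61 to 11.8 CPM in *ZK3*-KO cells (log2 fold change 1.09, FDR 0.0387 from edgeR's test). The part of *ACTA2* in any result on the autophagy genes was not tested. *ZK3*-KO replicate 3 stood apart from the other libraries, with a correlation of log2 CPM across genes of 0.963 and 0.950 with *ZK3*-KO replicates 1 and 2, where all other replicates of a genotype had correlations from 0.983 to 0.989.

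Of the 43 autophagy genes tested, *ATG14* rose in *ZK3*-KO cells and none fell at an FDR of 0.05. In the same test 2.05% of all genes were called (0.817% higher and 1.23% lower). Without adjustment 7 autophagy genes (16.3%) had a p-value under 0.05, and 18.4% of all genes did. These were *ATG14*, *ATG4A* and *ATG2B* with higher values and *RB1CC1*, *VMP1*, *ATG10* and *STX17* with lower values in *ZK3*-KO cells. DESeq2 called *ATG14* and *ATG4A*, both higher, and none lower, while it called 6.09% of all genes. For DESeq2 this share, here and below, is 1288 of the 21137 genes to which it gave an adjusted p-value. Of the 18366 genes kept by edgeR's filter DESeq2 called 1241. The median log2 fold change of the autophagy genes was 0.02, equal to that of all genes tested (0.02). Of the 43 genes, 25 were higher and 18 lower in *ZK3*-KO cells, and the log2 fold changes ran from -0.58 (*ATG16L2*) to 0.93 (*ATG14*). All 3 knockout libraries exceeded every parental library for 3 genes (*ATG14*, *ATG2B* and *ATG4A*), as for 12.7% of all genes. They were below every parental library for 5 genes (*RB1CC1*, *VMP1*, *ATG10*, *NBR1* and *STX17*), as for 13.8% of all genes. On the authors' TPM scale these counts were 2 above and 8 below, since *ATG2B* overlapped and *PIK3C3*, *ATG7* and *ATG16L2* did not. In a test on TPM 23.0% of the calls over all genes were upward, compared with 39.9% with TMM. The number of autophagy genes with higher values depended on the scale, with 25 of 43 by TMM, 14 with library totals and 15 with TPM. These scales moved all genes, whose median went from 0.018 to -0.066 and -0.082, and that of the autophagy genes to -0.072 and -0.14. With TPM the medians of the initiation complex, the PI3P effectors and the ATG8 proteins given below were also negative (-0.20, -0.17 and -0.33).

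**Figure D1:**
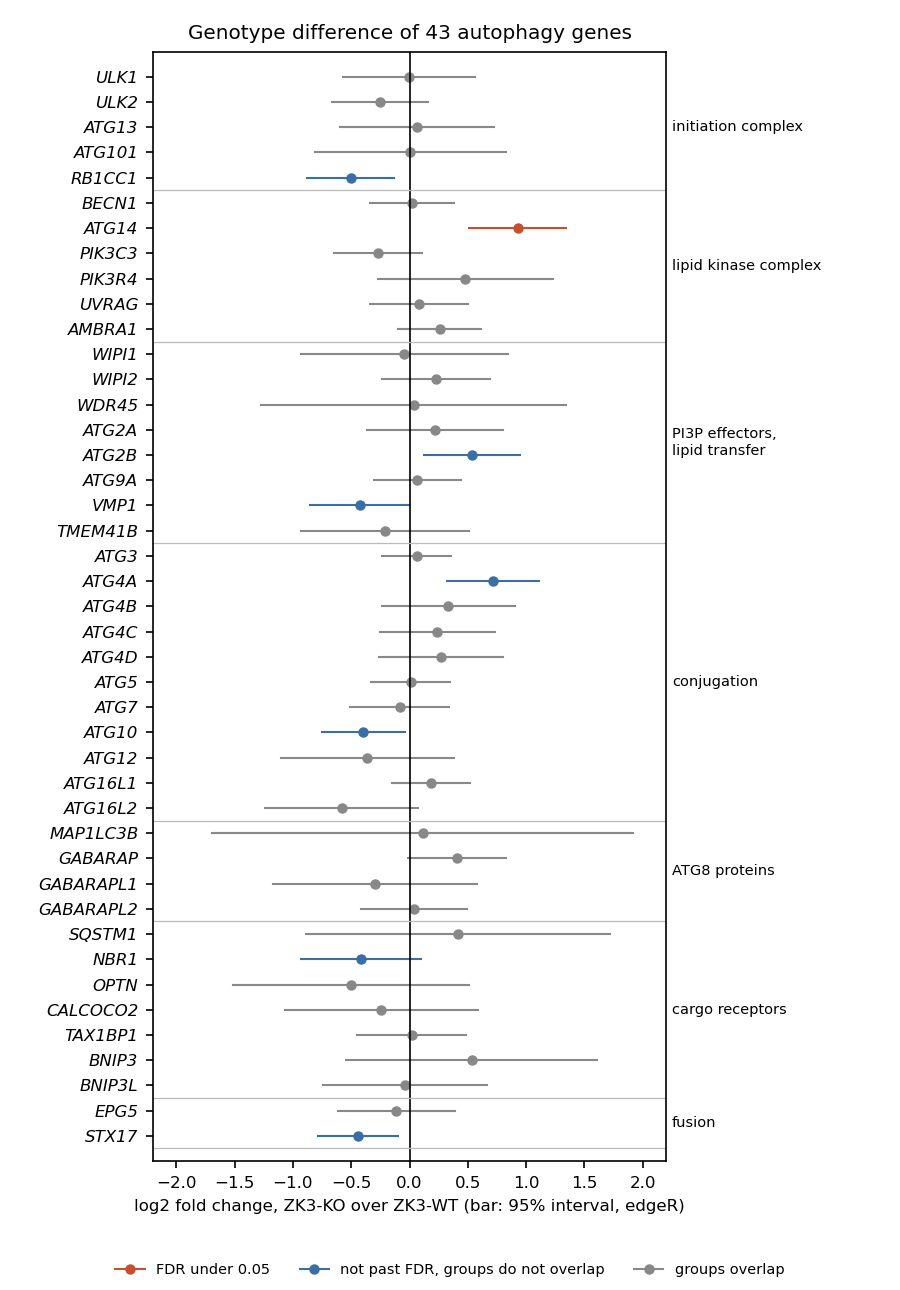
Log2 fold change of *ZK3*-KO over *ZK3*-WT cells (horizontal axis) for the 43 autophagy genes tested, ordered by role on the vertical axis. Points are edgeR's estimates and bars their 95% confidence intervals. Red marks *ATG14*, the gene past an FDR of 0.05, blue marks the 7 other genes whose groups do not overlap, and gray the genes whose groups overlap. The interval of *MAP1LC3B* is the widest, from -1.70 to 1.92.

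*ATG14* encodes the subunit that directs the lipid kinase complex to the site of autophagosome formation. It is NCBI Gene 22863 and spans 55833109 to 55878548 of chromosome 14 (GRCh37, reverse strand). The 250 bases before its start (RefSeq, GRCh38.p14, chr14:55411831-55412080, reverse strand) are shown because it was the gene that passed the test. They hold a CACGTG, the E-box bound by MiT/TFE factors among others, in capitals at position -21 from the start.
ATG14: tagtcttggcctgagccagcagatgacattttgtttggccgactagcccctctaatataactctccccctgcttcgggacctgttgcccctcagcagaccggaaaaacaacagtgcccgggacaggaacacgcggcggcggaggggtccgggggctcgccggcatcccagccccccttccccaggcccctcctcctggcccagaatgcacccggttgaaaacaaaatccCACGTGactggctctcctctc

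*ATG14* had 24.4, 23.1 and 21.0 CPM in the parental libraries and 49.7, 46.1 and 34.6 CPM in the knockout libraries. Every *ZK3*-KO library was above every *ZK3*-WT library, and *ZK3*-KO replicate 3 was the lowest of its group. Its mean ± SD over 3 libraries was 22.8 ± 1.71 CPM in the parental cells and 43.5 ± 7.93 CPM in the knockout. The log2 fold change was 0.93 (standard error 0.18, FDR 0.0493 from edgeR's test). *ATG14* was past the threshold in 4 of 14 alternative fits, in which its FDR ran from 0.00115 to 0.249, and its log2 fold change was above 0 in each of them. *FBXO34* overlaps *ATG14* on the opposite strand, with 36.7, 36.7 and 36.6 CPM in the parental libraries and 55.1, 53.4 and 45.8 CPM in the knockout libraries (log2 fold change 0.49, FDR 0.126). The library kit marks strand, but the counting is not stated to use it, so the reads of the overlapping genes may not be separated. This limit also holds for other autophagy genes with opposite-strand overlaps, among them *BECN1* (*PSME3*, mean 166 CPM) and *ATG12* (*AP3S1*, mean 319 CPM). *ATG3* overlaps *SLC35A5* (mean 25.4 CPM), which was lower in *ZK3*-KO cells (log2 fold change -0.81, FDR 0.0366 from edgeR's test).

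Chromosome 14 carried 2 of the 44 genes, *ATG14* and *ATG2B*, and of 63 further autophagy genes it carried *ZFYVE1*. The *ZK3*-KO libraries lay above the *ZK3*-WT libraries for all 3, where they did so for 12.7% of all genes. *ATG2B*, a lipid transfer protein (chromosome 14 from 96745532 to 96829678, reverse strand), had 26.9, 36.5 and 31.8 CPM in the parental libraries and 47.8, 51.0 and 38.8 CPM in the knockout libraries (log2 fold change 0.53, standard error 0.18, FDR 0.179). *ZFYVE1* encodes DFCP1, a PI3P-binding protein of the site where autophagosomes form. It had 16.1, 13.0 and 16.6 CPM in the parental libraries and 28.1, 19.0 and 41.5 CPM in the knockout libraries (log2 fold change 0.96, standard error 0.29, FDR 0.147). The 504 tested genes of chromosome 14 had a median log2 fold change of 0.51, where all tested genes had 0.018, and it was 0.44 with library totals and 0.29 with TPM. Of these 504 genes 404 were higher in *ZK3*-KO cells, where 51.7% of all genes were. At an FDR of 0.05, 53 rose and 3 fell, where 0.817% and 1.23% of all genes did. The *ZK3*-KO libraries lay above the *ZK3*-WT libraries for 243 of the 504 (48.2%), and for 12.7% of all genes. Relative to the *ZK3*-WT mean, chromosome 14 genes had medians of 0.42, 0.42 and 0.36 in the knockout libraries on the log2 scale. The part of this shift in the values of *ATG14*, *ATG2B* and *ZFYVE1* was not tested. Of the 41 autophagy genes tested on other chromosomes none was called by edgeR, which called 2.05% of all genes, and 1 by DESeq2 (*ATG4A*), which called 6.09% of all genes. Before adjustment 5 of the 41 (12.2%) had p-values under 0.05, compared with 18.4% of all genes. Their median log2 fold change was 0.018.

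The promoters of 37 of the 44 genes were matched in RefSeq by symbol. CACGTG, read on either strand from 250 bases before to 50 bases after the start, was found in 3 of them (8.11%), those of *ATG14*, *ATG3* and *BNIP3*, and in 7.26% of 35116 promoters. TGATGNAA, the core of the element bound by ATF4 with CEBP partners, was found in 1 (2.70%), that of *WDR45*, and in 3.62% of all promoters. The shares of the autophagy genes count genes with a match in any of their promoters, and some genes have several. The shares of all promoters count single promoters, so these shares are not like for like and no excess or lack can be read from them. The motifs do not overlap in sequence, and a match is a match of letters only.

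**Figure D2:**
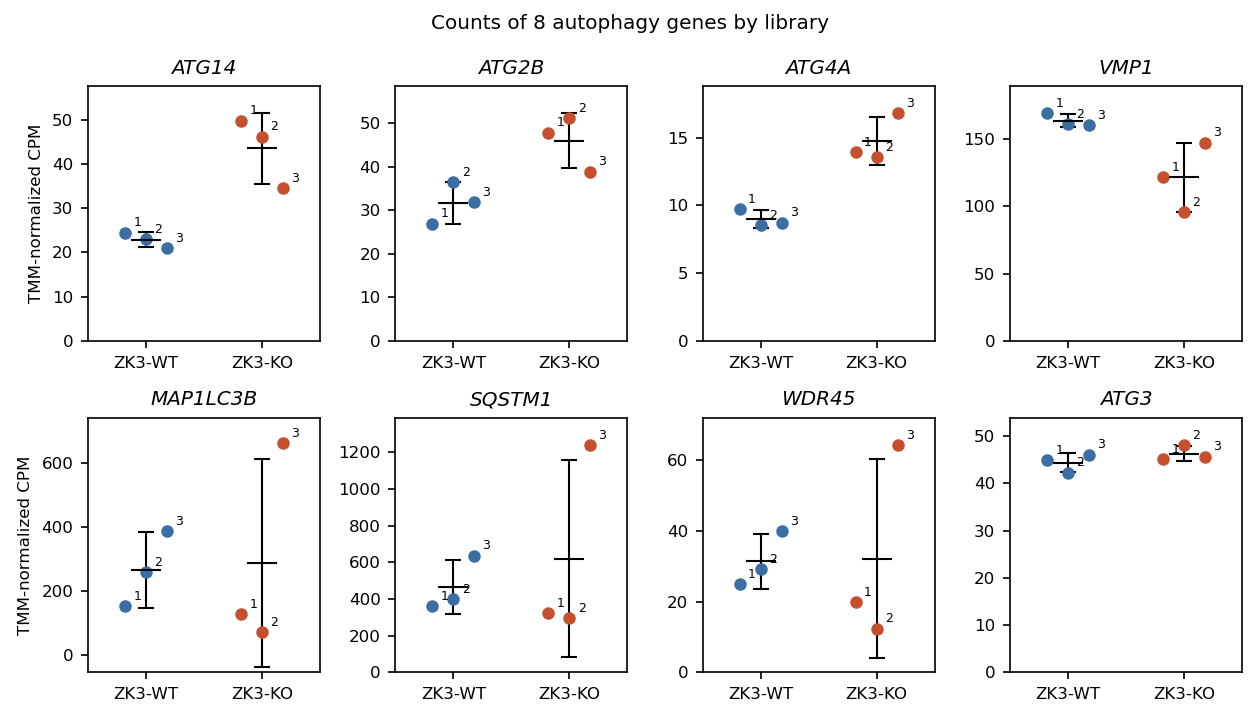
TMM-normalized CPM (vertical axes, each starting at or below 0) of 8 autophagy genes in the 3 *ZK3*-WT (blue) and 3 *ZK3*-KO (red) libraries, with the replicate number beside each point and the mean ± SD of each genotype in black. The genotypes do not overlap for *ATG14*, *ATG2B*, *ATG4A* and *VMP1*. *ZK3*-KO replicate 3 is far above the other libraries for *MAP1LC3B*, *SQSTM1* and *WDR45*, and *ATG3* is at 42.2 to 48.1 CPM in all 6.

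The initiation complex held 5 genes, none of which passed an FDR of 0.05 by edgeR (2.05% of all genes) or DESeq2 (6.09%). Without adjustment 1 (20%, *RB1CC1*) had a p-value under 0.05, as did 18.4% of all genes. Its median log2 fold change was -0.0031. *ULK1*, the kinase that starts autophagy, had 47.7, 40.2 and 56.8 CPM in the parental libraries and 46.3, 34.8 and 63.2 CPM in the knockout libraries. The groups overlapped (log2 fold change -0.0031, 95% interval -0.57 to 0.56, FDR 0.996). *RB1CC1* encodes FIP200, the scaffold of the complex. It had 78.8, 93.5 and 84.8 CPM in the parental libraries and 70.3, 52.6 and 58.6 CPM in the knockout libraries, with no overlap between the groups (log2 fold change -0.50, standard error 0.16, FDR 0.166). *ULK2*, a kinase related to ULK1, was at 17.5 to 19.2 CPM in *ZK3*-WT cells and at 13.6 to 18.6 CPM in *ZK3*-KO cells (log2 fold change -0.25, FDR 0.488). *ATG101*, which stabilizes ATG13, had the highest level of the complex per transcript length, at 72.8 ± 18.8 TPM (SD, n = 3) in *ZK3*-WT cells, and its log2 fold change was 0.01 (95% interval -0.81 to 0.83, FDR 0.994). Its sign depended on the scaling and on single libraries (-0.19 with TPM).

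In the lipid kinase complex 1 of 6 genes rose (*ATG14*) and none fell at an FDR of 0.05, where 0.817% and 1.23% of all genes did. The median log2 fold change was 0.17. *BECN1* encodes Beclin 1, the subunit that binds ATG14 and had the highest level per length in *ZK3*-WT cells (78.4 ± 2.96 TPM, SD, n = 3). It had 79.0, 71.5 and 78.3 CPM in the parental libraries and 73.9, 67.6 and 90.4 CPM in the knockout libraries (log2 fold change 0.02, 95% interval -0.34 to 0.38, FDR 0.962). *AMBRA1*, a regulator that binds Beclin 1, was at 30.7 to 37.3 CPM in *ZK3*-WT cells and at 36.9 to 45.6 CPM in *ZK3*-KO cells (log2 fold change 0.26, FDR 0.413). *PIK3R4*, the regulatory subunit of the kinase, stood out for its spread within *ZK3*-KO cells, with 46.8, 58.9 and 23.0 CPM, compared with 27.1 to 35.2 CPM in *ZK3*-WT cells. *ZK3*-KO replicate 3 was the lowest of all 6 libraries for this gene.

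Of the 8 genes for PI3P effectors and lipid transfer none passed an FDR of 0.05 by edgeR (2.05% of all genes) or DESeq2 (6.09%). Unadjusted p-values were under 0.05 for 2 (25.0%, *ATG2B* and *VMP1*), compared with 18.4% of all genes. The median log2 fold change was 0.05. *VMP1*, a lipid scramblase of the endoplasmic reticulum, had the highest level per length of the group, at 94.2 ± 2.66 TPM (SD, n = 3) in *ZK3*-WT cells. It had 169, 161 and 161 CPM in the parental libraries and 122, 95.9 and 147 CPM in the knockout libraries, with no overlap (log2 fold change -0.43, standard error 0.18, FDR 0.27). *VMP1* overlaps *PTRH2* on the opposite strand, which had 31.0 to 52.3 CPM in the 6 libraries. *WDR45* encodes the PI3P-binding protein WIPI4. It had 25.0, 29.1 and 40.0 CPM in the parental libraries and 19.8, 12.3 and 64.3 CPM in the knockout libraries, so both its lowest and its highest value were in *ZK3*-KO cells. *ATG9A*, a scramblase of the vesicles that seed the membrane, was at 65.9 to 82.2 CPM in *ZK3*-WT cells and at 72.3 to 91.0 CPM in *ZK3*-KO cells (log2 fold change 0.07, FDR 0.865).

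Of the 11 conjugation genes none passed an FDR of 0.05 by edgeR and DESeq2 called 1 (*ATG4A*), compared with 2.05% and 6.09% of all genes. Without adjustment 2 (18.2%) had a p-value under 0.05, as did 18.4% of all genes. The median log2 fold change was 0.06. *ATG4A* encodes a protease that processes ATG8 proteins. It had 9.72, 8.53 and 8.74 CPM in the parental libraries and 13.96, 13.56 and 16.80 CPM in the knockout libraries, with no overlap. The estimated log2 difference was 0.72 (standard error 0.17, FDR 0.0865 by edgeR, adjusted p 0.00880 by DESeq2). *ATG10*, the conjugating enzyme that joins ATG12 to ATG5, had 11.90, 12.31 and 12.01 CPM in the parental libraries and 8.77, 9.52 and 9.21 CPM in the knockout libraries. The groups did not overlap (log2 fold change -0.40, standard error 0.15, FDR 0.229). *ATG10* overlaps *RPS23*, a ribosomal protein gene on the opposite strand with a mean of 661 CPM, compared with 10.6 CPM for *ATG10*, and without strand their shared stretches cannot be told apart. *ATG12*, which marks ATG5 and had the highest level per length of the group, varied within both genotypes, from 122 to 243 CPM in *ZK3*-WT cells and from 105 to 200 CPM in *ZK3*-KO cells (log2 fold change -0.36, FDR 0.597). The remaining examples had narrow intervals around 0. *ATG3*, which transfers ATG8 proteins to lipid, had a log2 fold change of 0.06 (95% interval -0.23 to 0.36), and *ATG5*, which forms the ligase with ATG12 and ATG16L1, had 0.01 (95% interval -0.33 to 0.34).

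The ATG8 proteins held 5 genes, of which 4 were tested. None of the 4 passed an FDR of 0.05 by edgeR or DESeq2, where 2.05% and 6.09% of all genes did. None had a p-value under 0.05 before adjustment, where 18.4% of all genes did. The median log2 fold change was 0.08. *MAP1LC3A* (LC3A) did not pass the expression filter. The parental libraries had 0, 0 and 2 of its reads and the knockout libraries 3, 0 and 7, and 3 reads, the limit that a count of 0 allows, correspond to 0.0428 to 0.0485 CPM. *MAP1LC3B* encodes LC3B, the most used marker of autophagosomes (chromosome 16 of GRCh37 from 87417559 to 87438385, forward strand). It had 152, 260 and 388 CPM in the parental libraries and 127, 72.2 and 664 CPM in the knockout libraries. The lowest and the highest libraries were both *ZK3*-KO, and replicate 3 was 9.20-fold above replicate 2. The log2 fold change was 0.11 with a 95% interval from -1.70 to 1.92 (FDR 0.959). No difference was detected, and a change of several fold in either direction was not excluded. Its near copy *MAP1LC3B2* had 1.11, 2.07 and 2.92 CPM in the parental libraries and 1.23, 0.534 and 4.29 CPM in the knockout libraries, in nearly the same order, and reads shared between the copies cannot be told apart. The 250 bases before the start of *MAP1LC3B* (RefSeq, GRCh38.p14, chr16:87392086-87392335, forward strand) are shown because the gene varied most between libraries of 1 genotype. They hold neither CACGTG nor TGATGNAA, so nothing is in capitals.
MAP1LC3B: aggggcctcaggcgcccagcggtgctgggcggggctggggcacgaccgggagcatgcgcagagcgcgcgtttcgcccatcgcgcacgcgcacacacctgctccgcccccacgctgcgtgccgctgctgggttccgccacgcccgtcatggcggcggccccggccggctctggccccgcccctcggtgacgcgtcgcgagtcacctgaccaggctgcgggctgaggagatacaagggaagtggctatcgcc

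*GABARAP*, another ATG8 protein, had 92.2, 64.0 and 71.4 CPM in the parental libraries and 98.4, 90.7 and 113 CPM in the knockout libraries (log2 fold change 0.41, standard error 0.18, FDR 0.288). *GABARAPL1* had 47.2, 55.9 and 64.2 CPM in the parental libraries and 37.8, 24.5 and 74.4 CPM in the knockout libraries (log2 fold change -0.29, 95% interval -1.17 to 0.58, FDR 0.731). It had the same order of libraries as *MAP1LC3B*. *GABARAPL3*, a near copy, had no read in any library.

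Of the 7 cargo receptors none passed an FDR of 0.05 by edgeR (2.05% of all genes) or DESeq2 (6.09%). None had an unadjusted p-value under 0.05, where 18.4% of all genes did, and the median log2 fold change was -0.04. *SQSTM1* encodes p62, which carries ubiquitinated cargo and is itself degraded by autophagy. It had the highest level per length of all 44 genes, at 346 ± 109 TPM in *ZK3*-WT cells and 395 ± 291 TPM in *ZK3*-KO cells (SD, n = 3), and *MAP1LC3B* followed at 262 ± 115 TPM and 237 ± 244 TPM. Within each genotype the mean ± SD of *SQSTM1* and that of *MAP1LC3B* overlapped, and the difference in level between these genes was not tested. *SQSTM1* had 361, 399 and 637 CPM in the parental libraries and 323, 297 and 1240 CPM in the knockout libraries. *ZK3*-KO replicate 3 was 4.17-fold above replicate 2 (log2 fold change between genotypes 0.41, 95% interval -0.89 to 1.72, FDR 0.744). *NBR1*, a receptor related to p62, had 152, 131 and 137 CPM in the parental libraries and 115, 72.6 and 127 CPM in the knockout libraries, with no overlap (log2 fold change -0.42, standard error 0.22, FDR 0.364). *OPTN*, optineurin, had 41.2, 52.3 and 56.5 CPM in the parental libraries and 27.4, 16.7 and 61.8 CPM in the knockout libraries (log2 fold change -0.50, 95% interval -1.51 to 0.51, FDR 0.586). The mitophagy receptor *BNIP3* had another order, with 45.2, 16.4 and 18.9 CPM in the parental libraries and 59.5, 24.7 and 32.4 CPM in the knockout libraries (log2 fold change 0.53, FDR 0.587), replicate 1 being the highest of each genotype. Its pseudogene *BNIP3P1* stayed at 0.200 to 0.481 CPM.

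The 2 fusion genes were both lower in *ZK3*-KO cells. Neither passed an FDR of 0.05 by edgeR (2.05% of all genes) or DESeq2 (6.09%). Without adjustment 1 (*STX17*) had a p-value under 0.05 in edgeR's test, as did 18.4% of all genes. *STX17*, the syntaxin of the finished autophagosome, had 47.6, 61.9 and 52.5 CPM in the parental libraries and 41.2, 40.3 and 37.9 CPM in the knockout libraries. The groups did not overlap (log2 fold change -0.44, standard error 0.15, FDR 0.185). *EPG5*, a tether between autophagosomes and lysosomes, had overlapping groups (log2 fold change -0.11, FDR 0.823, and 0.070 without *ZK3*-KO replicate 3).

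The libraries of 1 genotype differed from each other more in *ZK3*-KO than in *ZK3*-WT cells. For the autophagy genes the median log2 range among the 3 *ZK3*-KO libraries was 0.67, compared with 0.51 over all genes tested, and among the *ZK3*-WT libraries it was 0.32 for both. The *ZK3*-KO libraries differed by more than 2-fold for 13 of the 43 genes (30.2%), as for 17.5% of all genes. The *ZK3*-WT libraries did so for 2 (4.65%, *MAP1LC3B* and *BNIP3*), as for 2.58% of all genes. *ZK3*-KO replicate 3 was the highest of the 6 libraries for 26 genes (60.5%, compared with 28.8% of all genes), and *ZK3*-KO replicate 2 the lowest for 24 (55.8%, compared with 24.3%). Both held for 16 genes (37.2%), and for 10.8% of all genes. The 44 genes together took 0.290%, 0.307% and 0.362% of the reads of the parental libraries and 0.270%, 0.218% and 0.432% of those of the knockout libraries.

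**Figure D3:**
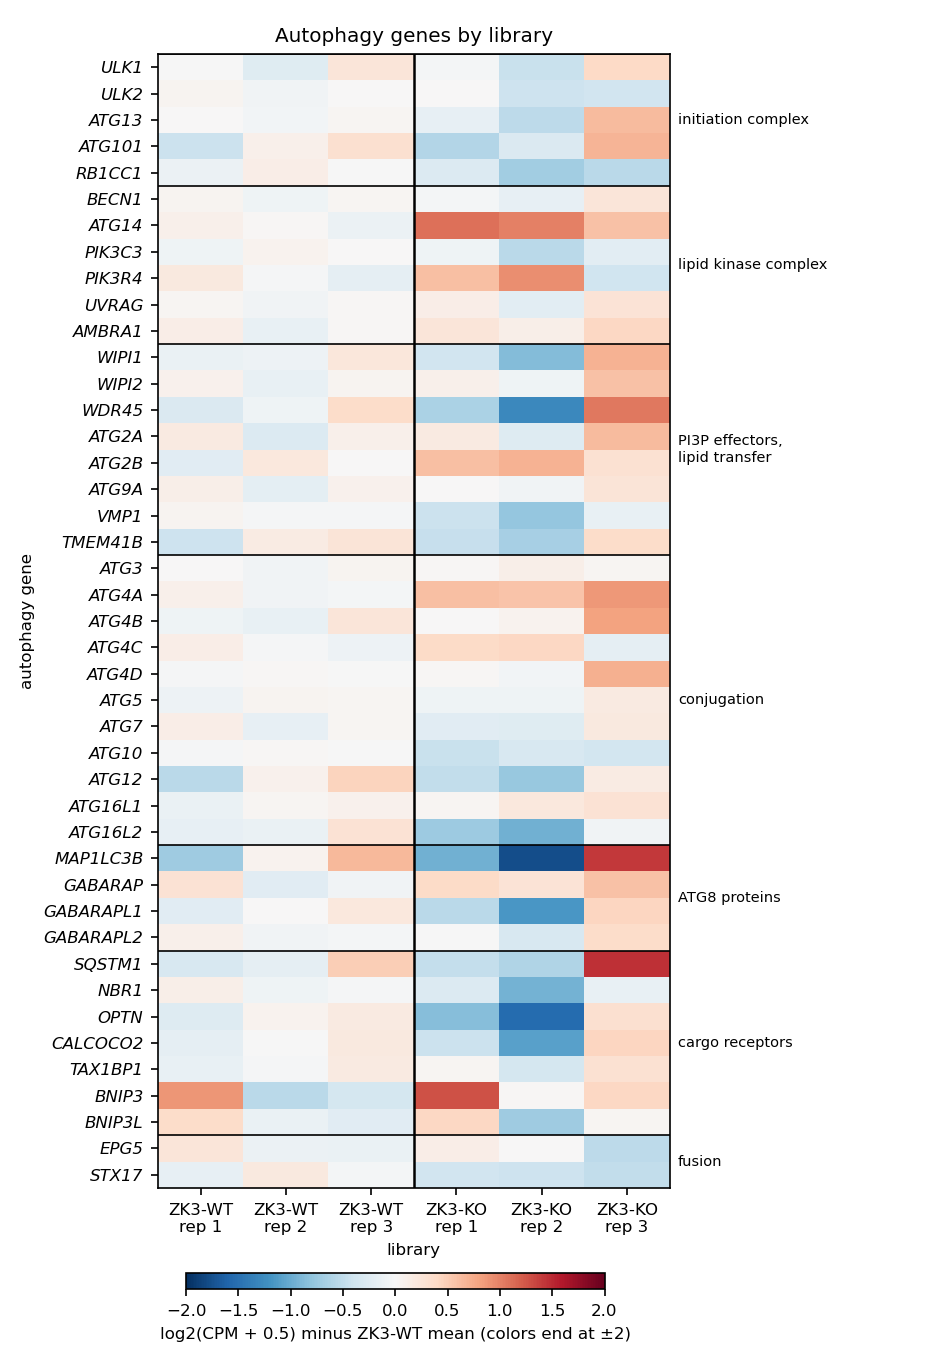
Log2(CPM + 0.5) minus the *ZK3*-WT mean (color, ending at ±2) of the 43 autophagy genes tested (rows, by role) in the 6 libraries (columns). Red is above and blue below the *ZK3*-WT mean. *ZK3*-KO replicate 2 is mostly blue and *ZK3*-KO replicate 3 mostly red, with medians of -0.32 and 0.31.

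The order from *ZK3*-KO replicate 2 through *ZK3*-KO replicate 1 and *ZK3*-WT replicates 1, 2 and 3 to *ZK3*-KO replicate 3, that of *MAP1LC3B*, was shared by 8 of the 43 genes (18.6%) counting *MAP1LC3B* itself, and by 2.76% of all genes. The others were *WIPI1*, *WDR45*, *TMEM41B*, *GABARAPL1*, *SQSTM1*, *OPTN* and *CALCOCO2*. Between *ZK3*-KO replicates 2 and 3 the CPM of these 8 genes differed from 2.06-fold (*TMEM41B*) to 9.20-fold (*MAP1LC3B*), with 5.21-fold for *WDR45*, 3.69-fold for *OPTN*, 3.03-fold for *GABARAPL1*, 3.00-fold for *WIPI1* and 2.88-fold for *CALCOCO2*. The order was found after the values of *MAP1LC3B* were seen.

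Several roles varied together over the knockout libraries. Relative to the *ZK3*-WT mean on the log2 scale, the ATG8 proteins had medians of -0.27, -0.74 and 0.51 in the knockout libraries, and the cargo receptors -0.28, -0.71 and 0.32. The initiation complex had -0.16, -0.45 and 0.40, and the PI3P effectors and lipid transfer genes -0.19, -0.46 and 0.47. The conjugation genes were closer to the *ZK3*-WT mean, with 0.01, -0.06 and 0.18. The lipid kinase complex was at 0.18, -0.03 and 0.26. Known targets of ATF4, the transcription factor of amino acid and endoplasmic reticulum stress, moved with these libraries. Of 10 targets 9 were tested (*VLDLR* had no read), and their medians were -0.70, 0.13 and 0.50 in the parental libraries and -0.76, -1.99 and 0.81 in the knockout libraries. Summed, the targets were at 1576 to 2500 CPM in *ZK3*-WT cells and at 521 to 3297 CPM in *ZK3*-KO cells, and 8 of the 9 had the order of *MAP1LC3B*. None of the 9 passed an FDR of 0.05 or an unadjusted p-value of 0.05 in edgeR's test with all libraries or was called by DESeq2, and their median log2 fold change was -0.27. Without *ZK3*-KO replicate 3, 5 of the 9 (55.6%) fell at an FDR of 0.05, while 7.73% of all genes did, and the median was -1.39. Hypoxia targets had medians of 0.56, -0.32 and -0.19 in the parental libraries and 0.53, -0.96 and 0.66 in the knockout libraries. The median of the epithelial markers was highest in *ZK3*-KO replicate 3 as well, at 0.60, compared with -0.20 in *ZK3*-KO replicates 1 and 2. The part of these differences in the values of the autophagy genes was not tested.

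**Figure D4:**
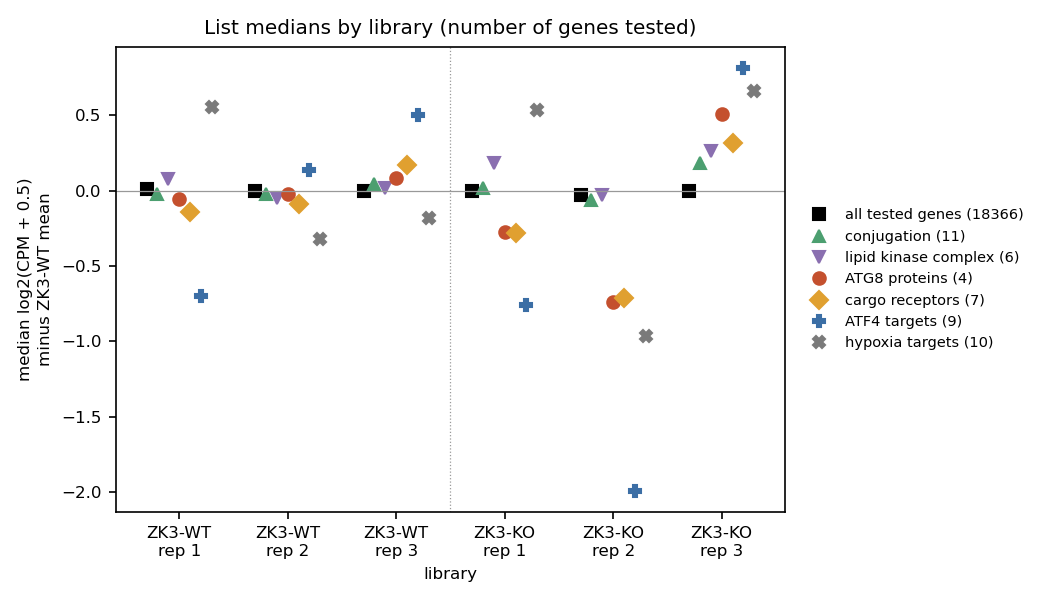
Median of log2(CPM + 0.5) minus the *ZK3*-WT mean (vertical axis) of 4 roles of autophagy genes, ATF4 targets, hypoxia targets and all tested genes in each library (horizontal axis), with the number of genes in parentheses. All tested genes stay near 0, while the ATF4 targets run from -1.99 in *ZK3*-KO replicate 2 to 0.81 in *ZK3*-KO replicate 3 and the ATG8 proteins and cargo receptors lie below 0 in the former and above 0 in the latter.

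The calls depended on these libraries. Without *ZK3*-KO replicate 3, 4 autophagy genes rose (*ATG14*, *PIK3R4*, *ATG2B* and *ATG4A*), while 7.41% of all genes did. In that fit 7 fell (*OPTN*, *CALCOCO2*, *WDR45*, *GABARAPL1*, *MAP1LC3B*, *VMP1* and *ATG16L2*), while 7.73% of all genes did, and the median log2 fold change was -0.15. The log2 fold change of *MAP1LC3B* was then -1.42 (FDR 0.0366), that of *WDR45* -0.96 (FDR 0.0372), that of *OPTN* -1.18 (FDR 0.0140) and that of *SQSTM1* -0.58 (FDR 0.119). Without *ZK3*-KO replicate 2 no autophagy gene was called, while only 158 of all 18912 genes tested were, and the median was 0.17. The log2 fold change of *MAP1LC3B* was then 0.57 (FDR 0.707) and that of *SQSTM1* 0.75 (FDR 0.533). *ATG14* had a log2 fold change of 1.07 (FDR 0.00253) without *ZK3*-KO replicate 3 and of 0.88 (FDR 0.121) without *ZK3*-KO replicate 2. Leaving out *ZK3*-KO replicate 1 or any *ZK3*-WT library also left no autophagy gene past an FDR of 0.05. Each of these fits called between 49 and 74 of the 18776 to 18864 genes tested, so the loss of calls was not particular to the autophagy genes.

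The rest of the pathway was described from 4 further lists with 63 genes, of which 62 were tested. None passed an FDR of 0.05 by edgeR, where 2.05% of all genes did. Without adjustment 5 (8.06%) had a p-value under 0.05 (4 higher and 1 lower), compared with 18.4% of all genes. DESeq2 called 1 gene, *ZFYVE1* (adjusted p 0.0342), and 6.09% of all genes. With the replicate number as a block, 1 gene was called, while 2.51% of all genes were. Their median log2 fold change was 0.09. Of 11 other fusion factors, which dock and join autophagosomes and lysosomes, 10 were higher in *ZK3*-KO cells, where 51.7% of all genes were, and the median log2 fold change was 0.27. All 3 knockout libraries were above the parental ones for 5 (45.5%), as for 12.7% of all genes. With TPM 8 of the 11 were higher. The 5 were *RAB7A*, *VPS11*, *VPS16*, *VPS18* and *VPS33A*, named after their values were seen. *VPS33A*, a subunit of the HOPS tethering complex, had 31.42, 31.00 and 29.99 CPM in the parental libraries and 42.0, 42.4 and 38.1 CPM in the knockout libraries (log2 fold change 0.41, standard error 0.13, FDR 0.168). Of 17 other cargo receptors 10 were higher and 7 lower, and no p-value was under 0.05. *PHB2*, a mitophagy receptor, had the smallest p-value, at 268 to 308 CPM in *ZK3*-WT cells and 338 to 369 CPM in *ZK3*-KO cells (log2 fold change 0.30, FDR 0.313). Of 13 other core factors tested 8 were higher and 5 lower, with a median of 0.07. Of 21 upstream regulators 10 were higher and 11 lower, with a median of -0.02. *SESN3*, a sestrin that restrains the kinase mTORC1, had 23.8, 26.4 and 15.2 CPM in the parental libraries and 15.0, 10.0 and 5.63 CPM in the knockout libraries (log2 fold change -1.09, standard error 0.37, FDR 0.188). With the block its log2 fold change was -1.16 and its FDR 0.0432, which changes the call.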

How the data were processed

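RNA of 3 *ZK3*-WT and 3 *ZK3*-KO libraries was sequenced by the authors, and groups and replicate numbers were taken from the labels. The deposited table gives a count of reads per gene and library without normalization, beside the authors' FPKM (not used) and TPM values (used for levels per length and in 1 alternative). The methods name Bowtie 2 (version 2.2.5 per the submitters' processing notes) and an Ensembl annotation of hg19, whereas the table lists NCBI Gene identifiers. Counts were analysed with edgeR 4.0.16 in R 4.3.3 (filterByExpr, TMM factors, quasi-likelihood test, genotype only, Benjamini-Hochberg adjustment, threshold 0.05). The script was tested on simulated data. Counting error is small at this depth, and replicates differed by more than sampling noise.

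The 44 genes and all lists were chosen with earlier results of these data known. Named genes were those past the threshold, in each role the 2 with the smallest p-value and the 1 with the highest TPM, *ULK1*, *BECN1*, *MAP1LC3B*, *SQSTM1*, genes that failed the filter, near copies, and from each other list the gene with the smallest p-value. All other genes in the text, among them *PIK3R4*, *WDR45*, *ATG9A*, *ATG3*, *ATG5*, *BNIP3*, *CCPG1* and *RUBCN*, were chosen with their values known. Deviations of same-numbered libraries from their genotype mean had correlations across genes of 0.294, 0.112 and 0.449. Those of differently numbered libraries ran from -0.343 to 0.209. The highest of these, *ZK3*-WT replicate 1 with *ZK3*-KO replicate 2, exceeded the value for the replicates numbered 2. No source says what the numbers mark. Positions came from a GRCh37 annotation and promoters from RefSeq. The alternatives were DESeq2 1.42.0, 3 other scalings, 2 other filters, limma 3.58.1 on log2(TPM + 1), the block and each library left out.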

Additional observations from a re-analysis of the deposited data

How the results depend on the processing

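DESeq2 called 1288 genes in place of 376, 2 of the 43 autophagy genes and 1 of the other autophagy genes, and *ATG4A* was the added autophagy gene. With upper-quartile factors, library totals alone, every gene with a read, at least 10 reads in every library, or limma on log2(TPM + 1), 0 of the autophagy genes were called, and the FDR of *ATG14* was 0.0523, 0.0878, 0.0729, 0.0543 and 0.174. In the same order these fits called few genes of any kind: 353 of 18366, 369 of 18366, 270 of 28275, 284 of 16299 and 382 of 18366. The median log2 fold change of the autophagy genes was -0.072 with library totals and -0.14 with TPM. The log2 fold change of *ATG101* turned to -0.0073 with upper-quartile factors, -0.10 with totals, -0.0042 with at least 10 reads and -0.19 with TPM, that of *BECN1* to -0.0018, -0.069 and -0.11 with upper-quartile factors, totals and TPM, and that of *MAP1LC3B* to -0.028 with totals and -0.56 with TPM. With the replicate block, *ATG14* remained called (FDR 0.0365), the log2 fold change of *ATG101* was -0.065 and that of *MAP1LC3B* -0.43, and 1 of the other autophagy genes, *SESN3*, was called. The block changed no other call among the named genes.

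Leaving out 1 library moved the number of genes past an FDR of 0.05 from 49 to 2858, of autophagy genes from 0 to 11 and of the other autophagy genes from 0 to 5, and the autophagy median from -0.15 to 0.17. Among the genes named by the fixed rule, log2 fold changes that crossed 0 ran from -0.24 to 0.18 (*ULK1*), -0.46 to 0.25 (*ATG101*), -0.10 to 0.11 (*BECN1*), -1.42 to 0.57 (*MAP1LC3B*), -0.84 to 0.0075 (*GABARAPL1*), -0.58 to 0.75 (*SQSTM1*) and -0.24 to 0.070 (*EPG5*). Other autophagy genes crossed 0 as well, among them *WDR45* (-0.96 to 0.42), *WIPI1* (-0.62 to 0.25) and *CALCOCO2* (-0.73 to 0.053). The causes were not tested. With 3 libraries per genotype and the spread of *ZK3*-KO cells, intervals as wide as that of *MAP1LC3B* do not exclude a change of several fold.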

Other observations

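Of the 21 upstream regulators of autophagy 2 (9.52%), *DDIT4* and *SESN2*, had the same order of libraries as *MAP1LC3B*, as did 2.76% of all genes. *SESN3*, another sestrin, did not have it and was lowest in *ZK3*-KO replicate 3. *DDIT4* (REDD1), an inhibitor of mTORC1 induced by stress, had 372, 492 and 718 CPM in the parental libraries and 276, 51.3 and 985 CPM in the knockout libraries, a 19.2-fold difference between *ZK3*-KO replicates 3 and 2. *SESN2*, a sestrin and ATF4 target, had 51.2, 92.2 and 126 CPM in the parental libraries and 43.6, 20.8 and 211 CPM in the knockout libraries. With all libraries edgeR's FDR was 0.899 and 0.988, so neither was called, and all genes of this paragraph were chosen with their values known. Of the other cargo receptors, *CCPG1* is a receptor for autophagy of the endoplasmic reticulum. It had 23.9, 42.3 and 40.8 CPM in the parental libraries and 18.6, 12.6 and 44.3 CPM in the knockout libraries. In edgeR's main test *CCPG1* was not called (log2 fold change -0.50, FDR 0.610). Its log2 fold change was -1.19 (FDR 0.0234) once *ZK3*-KO replicate 3 was dropped. That reduced fit called 5 of the 62 other autophagy genes tested, 3 higher and 2 lower. Of all genes, 7.41% were called higher and 7.73% lower in it, so such a call was not particular to *CCPG1*. Of the other core factors, *RUBCN* (Rubicon), an inhibitor of the lipid kinase complex, was at 33.5 to 35.5 CPM in *ZK3*-WT cells and at 40.5 to 46.3 CPM in *ZK3*-KO cells, with no overlap (log2 fold change 0.33, FDR 0.241).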
